A study of Mus musculus with 6 samples.

Results

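The enzymes that break glucose down to lactate, and genes that are switched on when oxygen is low, were followed as 35 genes in the soft palate of mouse embryos with and without Dlx5. The genes were taken by symbol from a deposited table of 49492 gene rows and fell into 4 groups: 15 enzymes and transporters of glycolysis made in nearly every cell, 5 isoenzymes typical of neurons, 4 typical of muscle, and 11 hypoxia targets. They were selected on their measured levels in this same comparison, knockout against control, known from earlier results, so the values describe these libraries, and an adjusted p only places a gene among all genes tested. RNA sequencing covered 3 Dlx5 knockout (Dlx5-/-) libraries and 3 wild-type control libraries, all from E14.5 embryos and all from dissected posterior palate. Dlx5 is a homeobox protein that regulates transcription in the pharyngeal arches, the source of much of the palate. The labels do not state whether the knockout is germline, on which strain it was bred, or whether each library came from its own embryo. The p-values therefore reflect only how far these samples spread, and that spread may be technical.

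Glycolysis turns glucose into pyruvate in a chain of steps, and several steps have more than 1 gene, each encoding an isoenzyme favoured by a tissue. When oxygen is scarce, prolyl hydroxylases stop marking the hypoxia-inducible factors for destruction, and the factors then bind short DNA elements with the core ACGTG or GCGTG beside glycolytic genes, the glucose transporter gene Slc2a1, the angiogenic factor gene Vegfa and others. Embryonic tissues run glycolysis strongly even with oxygen present. A soft palate dissection holds neural crest mesenchyme, muscle precursors, nerve fibres, epithelium and vessels, so an isoenzyme's level in bulk RNA can follow either the cells present or their RNA output. Fewer cells of a type and less RNA per cell cannot be told apart in these data.

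The libraries held 8741020 to 11492409 estimated counts in the knockouts and 6891798 to 11922442 in the controls, with the lowest total in control replicate 3. Levels are given as CPM, the count of a gene scaled to a common library total after TMM correction. Dlx5 itself measured 0.827, 1.63 and 1.28 CPM in the knockouts, against 26.1, 15.6 and 16.2 CPM in the controls, and every library matched its label. All 10 palate mesenchyme markers were detected, with summed levels of 4330 to 7955 CPM in the knockouts and 6328 to 6988 CPM in the controls. Knockout replicate 3 stood apart: its mean correlation with the other libraries was 0.959, against 0.970 to 0.976 for the rest. In it, 10 brain markers, among them Gfap, Gad1 and Tbr1, summed to 531 CPM, against 49.2 to 77.8 CPM in the other 5 libraries. Control replicate 3 stood apart on many of the genes described here.

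Of the 35 genes, 34 passed the filter of a mean of 1 CPM, and Adm, which encodes the vasodilator peptide adrenomedullin, did not. None of the 34 had an adjusted p under 0.05 in edgeR's quasi-likelihood test, where 0.00617% of all 16218 genes did (1 gene, Dlx5). At an unadjusted p under 0.05, 6 of the 34 were lower in the knockout, beside 7.23% of all genes, and 3 were higher, beside 5.61%. DESeq2 called 3 of them lower, Pfkp, Pgm2l1 and Ndrg1, beside 2.62% of its genes, and limma called Pfkp and Pgm2l1 lower, beside 0.543%. The groups did not overlap for 6 members that were lower, beside 9.7% of all genes, and for 3 that were higher, beside 9.49%. Nothing is read from these shares, because the members were chosen with this comparison known. The median log2 fold change of knockout over control was -0.24 over the 34 members and 0.01 over all genes. By group it was -0.21 for the ubiquitous enzymes, -0.31 for the neuronal isoenzymes, 0.36 for the muscle isoenzymes and -0.46 for the hypoxia targets. The neuronal median depended on single libraries: it was -0.73 without knockout replicate 3, and -0.14, -0.10 and -0.16 without knockout replicate 1, knockout replicate 2 and control replicate 3, in that order.

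**Figure D1:**
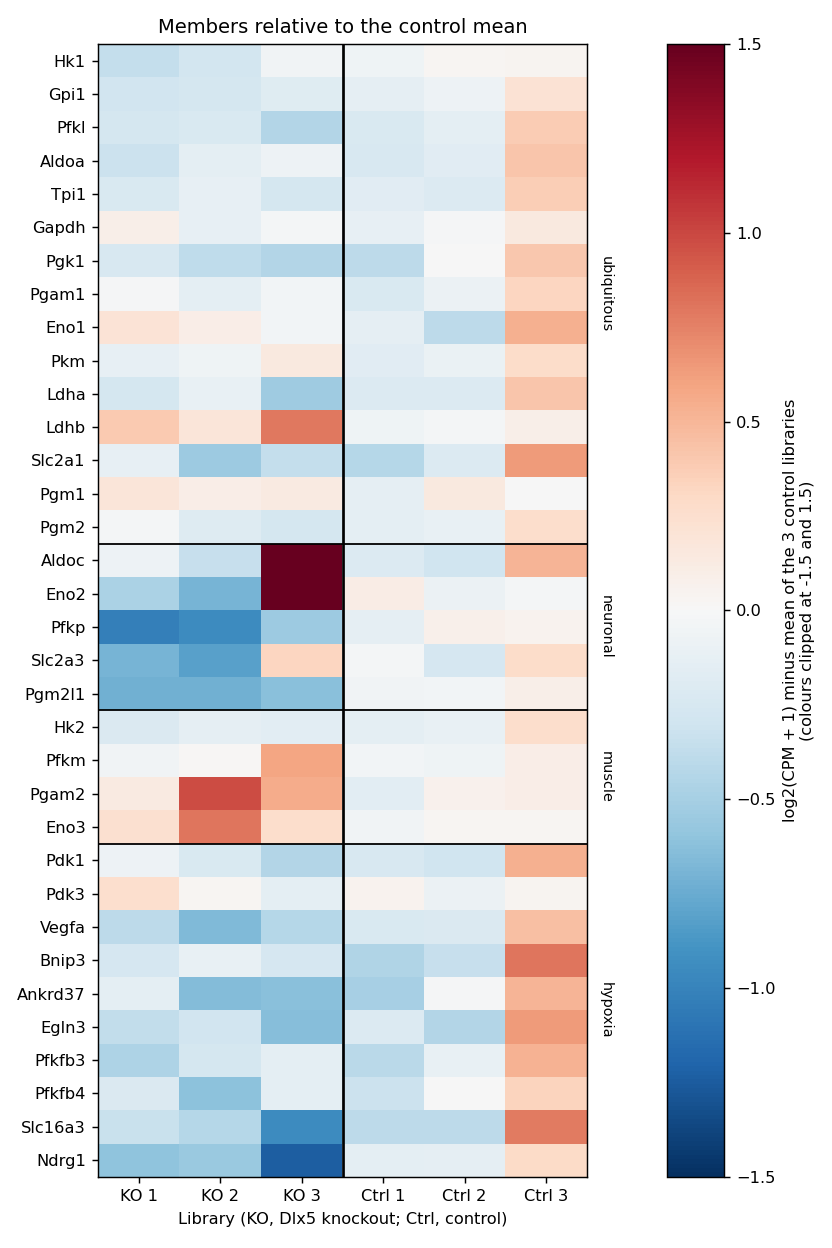
Heat map of the 34 members that passed the filter, in rows by group, over the 3 Dlx5 knockout (KO) and then the 3 control (Ctrl) libraries. Colour is log2(CPM + 1) minus the mean of the 3 controls, clipped at -1.5 and 1.5. Control replicate 3 is the reddest column among the ubiquitous enzymes and hypoxia targets, knockout replicate 3 is reddest for Aldoc and Eno2, and Pfkp and Pgm2l1 are blue in all 3 knockouts.

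The neuronal isoenzymes split into genes lower in all 3 knockouts and genes high in a single knockout. Pgm2l1 encodes the synthase that makes glucose bisphosphate, the cofactor of phosphoglucomutase, and is abundant in brain. It lies on chromosome 7 from 100227394 to 100278868 on the plus strand (GRCm38). Pgm2l1 measured 60.8, 60.8 and 64.9 CPM in the knockouts, against 97.0, 98.2 and 107 CPM in the controls. Every knockout library was lower than every control library, and each group was tight: 62.2 ± 2.38 CPM in the knockouts and 101 ± 5.67 CPM in the controls (SD, n = 3 each). The difference of knockout from control on the log2 scale was -0.70 (SE 0.08; 95% interval -0.88 to -0.52), and the adjusted p of 0.0528 in edgeR was just above the threshold. By unadjusted p it ranked 2 of the 16218 genes.

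Pfkp encodes the platelet form of phosphofructokinase, the enzyme of the committed step of glycolysis, and is a form used by platelets and brain. It lies on chromosome 13 from 6579768 to 6648777 on the minus strand (GRCm38). Pfkp measured 25.6, 27.1 and 35.9 CPM in the knockouts, against 48.2, 56.0 and 55.2 CPM in the controls. The groups did not overlap, and the knockout nearest to the controls was replicate 3. The estimated counts of Pfkp were not whole in any library, so copies may share its reads. Means were 29.5 ± 5.55 CPM in the knockouts and 53.1 ± 4.28 CPM in the controls (SD, n = 3 each), a log2 fold change of -0.84 (SE 0.14; 95% interval -1.16 to -0.52; adjusted p = 0.0566, edgeR). Without knockout replicate 3 the edgeR adjusted p was 0.0149 for Pfkp, with a log2 fold change of -1.01, and 0.023 for Pgm2l1, with -0.73, where 0.937% of all genes were called lower. Without both replicates numbered 3 these adjusted p-values were 0.0389 and 0.042, where 0.339% were called lower. DESeq2 gave adjusted p-values of 9.21e-05 for Pfkp and 2.67e-07 for Pgm2l1, and limma gave 0.0451 and 0.0429. Over all alternatives the adjusted p ran from 9.21e-05 to 0.283 for Pfkp and from 2.67e-07 to 0.212 for Pgm2l1.

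Most markers of neurons moved with these genes. The 14 neuron markers, among them Tubb3, Nefm and Elavl3, were all detected and summed to 2739, 2355 and 2100 CPM in the knockouts, against 3958, 5039 and 4032 CPM in the controls. For 10 of the 14 the groups did not overlap, each lower in the knockout, beside 9.7% of all genes. The median log2 fold change over all 14 was -0.73. A log2 fold change above 0, up to 0.37, was found for 2 of them, and 4 of the 14 were highest in knockout replicate 3. None of the 14 passed an adjusted p of 0.05 in edgeR. An unadjusted p under 0.05 was found for 10, all lower, beside 7.23% of all genes. DESeq2 called 9 of the 14, all lower, beside 2.62% of its genes. The part of these markers in the Pfkp and Pgm2l1 values was not tested.

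Eno2, Aldoc and Slc2a3 had another pattern. Eno2, the neuron-specific enolase, measured 13.3, 11.4 and 73.4 CPM in the knockouts, against 20.7, 17.8 and 18.6 CPM in the controls. Knockout replicates 1 and 2 were below every control and replicate 3 was far above every one. With all libraries its log2 fold change of 0.81 (SE 0.63) had an adjusted p of 0.652 in edgeR, and the estimate was -0.63 without knockout replicate 3. Aldoc, the brain aldolase, measured 10.04, 8.13 and 48.9 CPM in the knockouts, against 9.04, 8.42 and 15.5 CPM in the controls. Its knockout replicates 1 and 2 lay close to control replicates 1 and 2, and its log2 fold change was 1.07 (SE 0.64) with all libraries and -0.26 without knockout replicate 3. Slc2a3, which encodes the neuronal glucose transporter, measured 13.6, 12.5 and 28.6 CPM in the knockouts, against 22.3, 18.9 and 27.7 CPM in the controls. Here too replicate 3 was the highest library and the other knockouts were below all controls. The Slc2a3 log2 fold change was -0.31 (SE 0.31) with all libraries and -0.81 without knockout replicate 3. The library that carried these highs was the library with the brain markers: Gfap, the astrocyte filament, measured 40.2 CPM in knockout replicate 3, against 0.486 to 2.36 CPM elsewhere, and all 9 brain markers that passed the filter were highest there. Their part in the Eno2, Aldoc and Slc2a3 values was not tested.

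**Figure D2:**
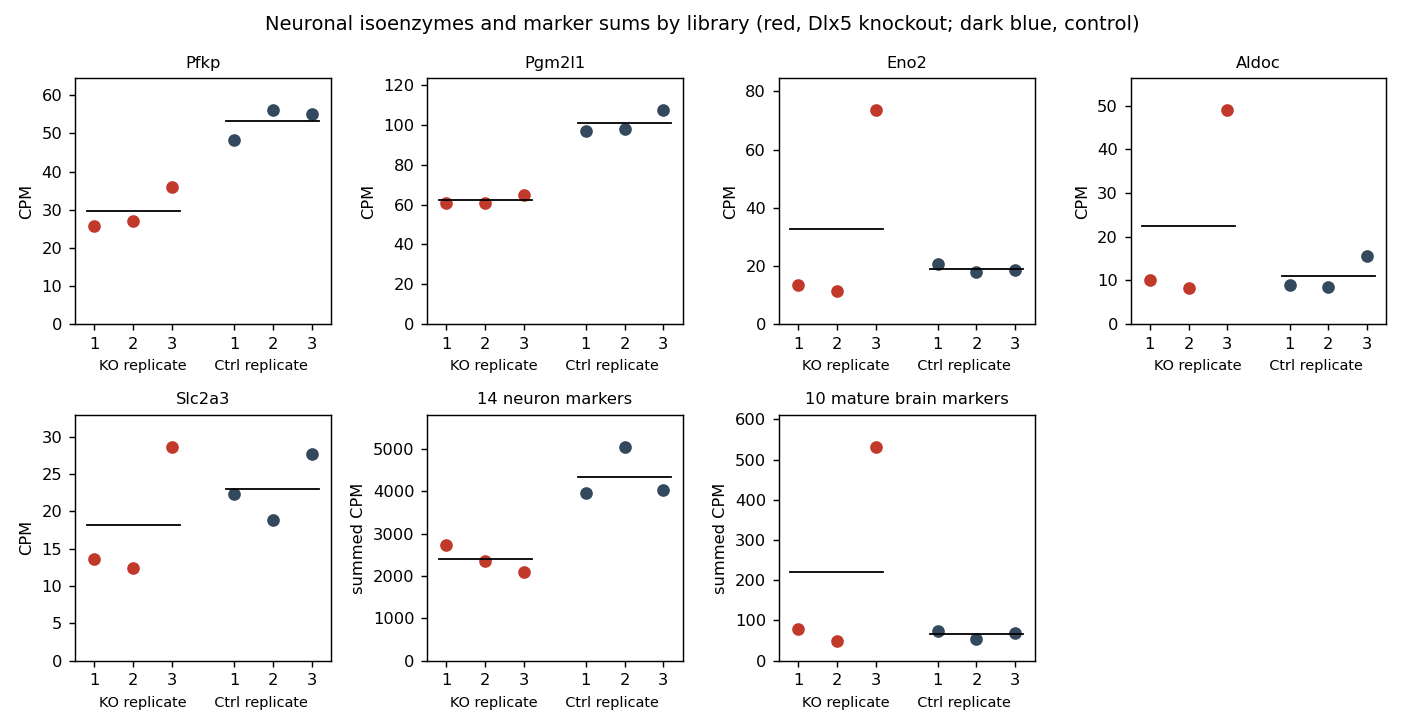
Levels of the 5 neuronal isoenzymes in CPM, and the summed CPM of 14 neuron markers and of 10 brain markers (titled mature brain markers). Each point is a library, knockouts in red at the left, controls in dark blue at the right, and lines are group means. Pfkp, Pgm2l1 and the sum of the neuron markers are lower in all 3 knockouts, while Eno2, Aldoc and the sum of the brain markers are high in knockout replicate 3 only.

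Among the muscle isoenzymes, Pgam2 and Eno3 were higher in every knockout than in any control, without passing the adjusted threshold. Pgam2 encodes the muscle phosphoglycerate mutase and measured 10.6, 19.9 and 14.6 CPM in the knockouts, against 8.50, 10.04 and 10.3 CPM in the controls. The lowest knockout stood only slightly above the highest control. The estimated log2 fold change of 0.65 (SE 0.24) had an adjusted p of 0.296 in edgeR. Eno3 encodes the muscle enolase and measured 15.7, 23.7 and 16.1 CPM in the knockouts, against 12.7, 13.4 and 13.5 CPM in the controls. It was higher by 0.49 on the log2 scale (SE 0.18), with an adjusted p of 0.314 in edgeR. Both were highest in knockout replicate 2, and without that library the log2 fold changes were 0.39 for Pgam2 and 0.26 for Eno3. Knockout replicate 2 was also the library richest in skeletal muscle markers: the 14 markers summed to 1573, 4370 and 2625 CPM in the knockouts, against 1605, 2226 and 1297 CPM in the controls. All 14 had a log2 fold change above 0. For 4 of them the groups did not overlap, each higher in the knockout, beside 9.49% of all genes. None passed an adjusted p of 0.05 in edgeR, and 11 were higher at an unadjusted p under 0.05, beside 5.61% of all genes. DESeq2 called 4 of them, all higher, where it called 118 of its 14614 genes higher. The part of these markers in the Pgam2 and Eno3 values was not tested.

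The other muscle-type genes differed less. Pfkm, the muscle phosphofructokinase, measured 39.8, 41.8 and 62.7 CPM in the knockouts, against 40.2, 39.5 and 44.4 CPM in the controls. It was high in knockout replicate 3 and otherwise at the control level, with a log2 fold change of 0.23 (SE 0.17) that became -0.02 without that library. Hk2, the hexokinase of muscle that is also a hypoxia target, measured 21.7, 23.2 and 22.6 CPM in the knockouts, against 22.9, 23.5 and 30.7 CPM in the controls. The groups overlapped, with control replicate 3 highest.

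**Figure D3:**
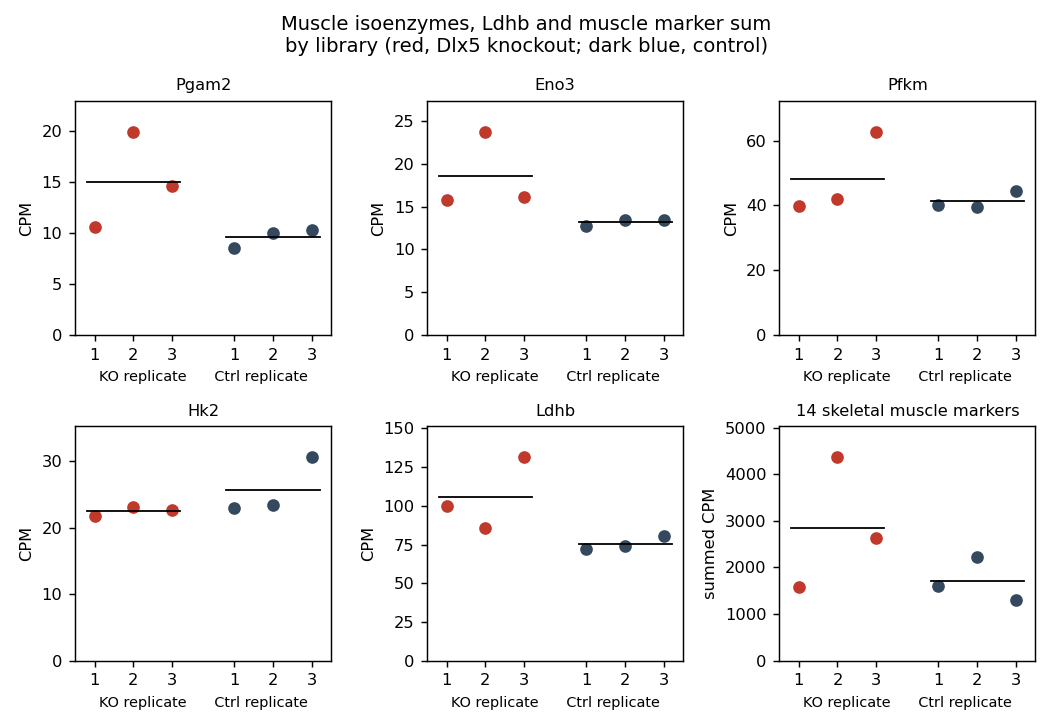
Levels of the 4 muscle isoenzymes and of Ldhb in CPM, and the summed CPM of 14 skeletal muscle markers. Each point is a library, knockouts in red at the left, controls in dark blue at the right, and lines are group means. Pgam2, Eno3 and the muscle markers peak in knockout replicate 2, Pfkm and Ldhb in knockout replicate 3, and Hk2 in control replicate 3.

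The ubiquitous enzymes included the most abundant members. Per kilobase of transcript, the control means were highest for Aldoa, Pkm, Ldha, Tpi1 and Gapdh. Those levels were 157, 164, 129, 112 and 119 CPM per kilobase in the knockouts, against 181, 167, 162, 131 and 121 CPM per kilobase in the controls, in that order of genes. The 15 genes summed to 2086, 2086 and 2138 CPM in the knockouts, against 1997, 2066 and 2864 CPM in the controls. The sum was therefore alike in 5 libraries and higher in control replicate 3. That library was the highest of all 6 for 13 of the 15 genes (86.7%), against 16.6% of all genes tested. The exceptions were Ldhb and Pgm1.

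The letters of the hypoxia element are common in the promoters of these genes. RefSeq windows on GRCm38.p6, reaching from 250 bases before to 50 bases after an annotated start, were matched for 33 of the 35 members, in 47 windows. Searched on both strands, ACGTG was found in 51.1% of the members' windows, against 19.6% of all 32851 windows, and GCGTG in 53.2%, against 32.4%. The members' windows were also richer in G and C, with a median of 61.0%, against 52.7% over all windows. The 250 bases upstream of the start are shown, 5′ to 3′ on the gene's strand, for 3 ubiquitous enzymes, Ldha, Pgk1 and Pgam1, and for the hypoxia target Egln3, whose levels were highest in control replicate 3. Only windows that hold ACGTG or GCGTG are shown. Other genes highest in that library lack both: the 250 bases upstream of Tpi1 and of Gpi1 held neither. The Ldha window, the upstream of the 2 windows of that gene, lies at chr7:46845554-46845803 on the plus strand. The others lie at chrX:106186850-106187099 on the plus strand for Pgk1, chr19:41911621-41911870 on the plus strand for Pgam1, and chr12:54203875-54204124 on the minus strand for Egln3. Capitals mark ACGTG or GCGTG and their reverse complements CACGT and CACGC, and an overlapping pair on both strands reads CACGTG.
Ldha: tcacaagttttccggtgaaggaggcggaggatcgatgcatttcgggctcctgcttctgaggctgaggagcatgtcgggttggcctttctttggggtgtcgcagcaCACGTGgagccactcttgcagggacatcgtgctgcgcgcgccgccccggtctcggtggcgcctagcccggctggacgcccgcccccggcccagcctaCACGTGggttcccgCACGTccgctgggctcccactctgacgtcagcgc
Pgk1: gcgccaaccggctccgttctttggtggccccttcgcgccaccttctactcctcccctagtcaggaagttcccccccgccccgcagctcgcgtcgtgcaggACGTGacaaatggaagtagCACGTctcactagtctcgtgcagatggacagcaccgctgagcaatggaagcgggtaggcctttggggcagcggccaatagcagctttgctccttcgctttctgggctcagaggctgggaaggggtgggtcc
Pgam1: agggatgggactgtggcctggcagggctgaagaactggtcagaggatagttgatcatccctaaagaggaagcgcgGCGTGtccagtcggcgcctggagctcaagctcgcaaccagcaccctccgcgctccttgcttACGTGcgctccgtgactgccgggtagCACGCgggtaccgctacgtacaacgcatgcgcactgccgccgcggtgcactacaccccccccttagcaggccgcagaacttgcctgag
Egln3: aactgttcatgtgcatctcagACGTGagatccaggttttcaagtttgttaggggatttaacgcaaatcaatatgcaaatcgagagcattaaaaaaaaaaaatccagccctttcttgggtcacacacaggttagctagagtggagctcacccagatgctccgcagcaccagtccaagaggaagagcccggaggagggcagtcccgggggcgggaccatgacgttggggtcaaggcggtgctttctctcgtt

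This Ldha window held ACGTG at 5 places counted over both strands, of which 4 came from 2 copies of the palindrome CACGTG. Pgk1 had 2 copies of ACGTG and none of GCGTG, Pgam1 had 1 of ACGTG and 2 of GCGTG, and Egln3 had 1 of ACGTG. These matches describe the letters and say nothing of binding in these embryos. Either element occurred in 84.6% of the 13 windows of the hypoxia targets, 77.3% of the 22 of the ubiquitous genes, 80.0% of the 5 of the neuronal isoenzymes and 71.4% of the 7 of the muscle isoenzymes, against 43.8% of all windows.

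By step, the first enzyme, hexokinase, is encoded mainly by Hk1 here, and Hk1 measured 65.9, 69.8 and 81.7 CPM in the knockouts, against 81.2, 86.3 and 87.0 CPM in the controls. Replicate 3 of the knockouts reached the control range, and the log2 fold change of -0.22 (SE 0.10) had an adjusted p of 0.382 in edgeR. Gpi1, the glucose phosphate isomerase, measured 152, 155 and 164 CPM in the knockouts, against 169, 177 and 216 CPM in the controls. The groups did not overlap, with a log2 fold change of -0.25 (SE 0.10; adjusted p = 0.358, edgeR). Pfkl, the liver phosphofructokinase, measured 74.3, 76.3 and 65.7 CPM in the knockouts, against 76.3, 80.5 and 117 CPM in the controls. Its groups were apart only by a difference below the rounding of these values, and the log2 fold change of -0.34 was -0.13 without control replicate 3, as that of Gpi1 was -0.14.

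Later in the chain, Aldoa, the main aldolase, measured 220, 248 and 260 CPM in the knockouts, against 231, 243 and 366 CPM in the controls. Pgam1, the ubiquitous phosphoglycerate mutase, measured 161, 147 and 158 CPM in the knockouts, against 138, 153 and 204 CPM in the controls. Eno1, the ubiquitous enolase, measured 192, 178 and 162 CPM in the knockouts, against 151, 127 and 241 CPM in the controls. In each of these 3 genes control replicate 3 lay above all other libraries. The remaining libraries overlapped for Aldoa and Pgam1, while for Eno1 every knockout lay above control replicates 1 and 2. The Eno1 log2 fold change was 0.04 (SE 0.21) with all libraries and 0.35 without control replicate 3. Ldha, which makes lactate from pyruvate, measured 240, 266 and 198 CPM in the knockouts, against 249, 249 and 384 CPM in the controls. Slc2a1, the widespread glucose transporter gene, measured 62.6, 46.5 and 52.8 CPM in the knockouts, against 50.3, 59.1 and 106 CPM in the controls. Both followed the same pattern, with log2 fold changes of -0.33 (SE 0.18) for Ldha and -0.41 (SE 0.26) for Slc2a1 that shrank to -0.09 and -0.03 without control replicate 3.

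The remaining ubiquitous members, Tpi1, Gapdh, Pgk1, Pkm, Pgm1 and Pgm2, had log2 fold changes between -0.39 for Pgk1 and 0.14 for Pgm1, with edgeR adjusted p-values from 0.424 to 0.964 and overlapping groups. The Pgk1 value was -0.18 without control replicate 3. Without that library the median over the 15 genes was -0.02, against -0.21 with all libraries. Reads of near-identical copies could be split between genes for 13 of the 15, whose estimated counts were not whole in at least 1 library, so small differences among them are uncertain. The symbols Pgm1 and Pgm2 are each listed by RefSeq as an older name of the other gene, and which gene each row counts was not settled.

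Ldhb was the ubiquitous member whose knockouts all lay above its controls. It encodes the heart-type subunit of lactate dehydrogenase, which favours the turning of lactate into pyruvate, and measured 99.9, 85.7 and 132 CPM in the knockouts, against 72.3, 74.1 and 80.6 CPM in the controls. All knockouts were above all controls, and the highest was replicate 3. Means were 106 ± 23.4 CPM in the knockouts and 75.7 ± 4.33 CPM in the controls (SD, n = 3 each), with a log2 fold change of 0.49 (SE 0.15; adjusted p = 0.211, edgeR). Without knockout replicate 3 it was 0.29. The estimated counts of Ldhb were not whole in any library, so copies may share its reads.

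Compared per kilobase, the shares of Pfkp, Pfkm, Ldhb and Pgam2 in their isoenzyme families lay apart between the groups, Pgam2 only narrowly. Pfkp held 15.5%, 15.7% and 18.0% of the phosphofructokinase RNA in the knockouts, against 25.3%, 27.7% and 22.2% in the controls. Pfkm held 34.63%, 34.99% and 45.3% in the knockouts, against 30.3%, 28.1% and 25.7% in the controls. Neither share overlapped between groups. Shares within a family are not independent, since a smaller share of a gene leaves larger shares for the rest. In knockout replicates 1 and 2 Pfkm itself measured 39.8 and 41.8 CPM, inside the range of its controls. Ldhb held 36.6%, 31.0% and 48.0% of the lactate dehydrogenase RNA in the knockouts, against 28.8%, 29.3% and 22.6% in the controls. The shares of Eno2 and Aldoc followed knockout replicate 3: Eno2 held 4.36%, 3.80% and 22.5% of the enolase RNA in the knockouts, against 8.22%, 8.23% and 4.98% in the controls. Pgam2 held 12.3%, 22.3% and 16.3% of the mutase RNA in the knockouts, against 11.5%, 12.2% and 9.65% in the controls. Its lowest knockout share was only just above its highest control share. Hk1 kept 79.5% to 82.3% of the hexokinase RNA in the knockouts and 78.5% to 82.6% in the controls. These shares depend on the transcript length assumed, and no test was run on them.

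**Figure D4:**
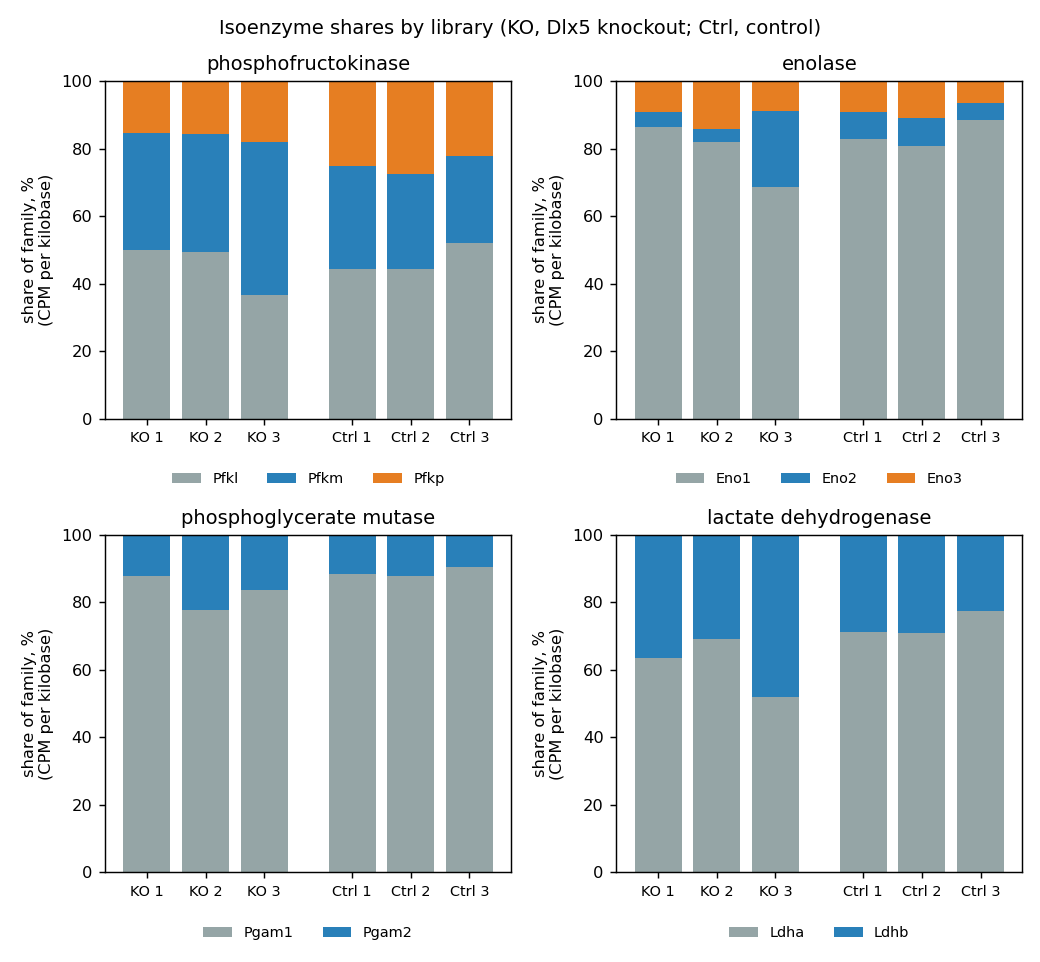
Stacked bars of the share of each isoenzyme in its family, in % of CPM per kilobase, for each Dlx5 knockout (KO) and control (Ctrl) library. Pfkp has a smaller share and Pfkm and Ldhb larger shares in all 3 knockouts, and Eno2 reaches 22.5% in knockout replicate 3.

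The hypoxia targets showed the mark of control replicate 3 most clearly. It was the highest library for 9 of the 10 targets that passed the filter (90.0%), and the exception was Pdk3. The median ratio of control replicate 3 to the mean of the other controls was 1.75 over these targets, 1.40 over the ubiquitous enzymes, 1.10 over the neuronal and 1.11 over the muscle isoenzymes, and 1.00 over all genes. The 11 targets summed to 217, 205 and 179 CPM in the knockouts, against 223, 226 and 364 CPM in the controls. The median log2 fold change of the 10 was -0.46 with all libraries, -0.15 without control replicate 3, and -0.06 without both replicates numbered 3.

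The targets with the largest excess in that library were singled out after their values were seen. Bnip3, a mitochondrial protein that promotes mitophagy, measured 16.5, 18.2 and 16.6 CPM in the knockouts, against 14.2, 15.4 and 35.3 CPM in the controls. The estimated counts of Bnip3 were not whole in any library, so copies may share its reads. Slc16a3, which encodes a lactate exporter, measured 15.1, 14.2 and 9.55 CPM in the knockouts, against 14.53, 14.57 and 34.0 CPM in the controls. Egln3, an oxygen-sensing prolyl hydroxylase that the hypoxia factors induce, measured 11.2, 11.9 and 9.18 CPM in the knockouts, against 12.7, 10.7 and 23.7 CPM in the controls. In all 3, control replicates 1 and 2 lay close to knockout replicates 1 and 2, and control replicate 3 lay above them by a ratio of 2.38, 2.33 and 2.02 to the mean of the other controls. The log2 fold changes without it were 0.20 for Bnip3, -0.18 for Slc16a3 and -0.12 for Egln3, against -0.32, -0.69 and -0.53 with all libraries. Adm, below the filter, had 4, 4 and 4 estimated counts in the knockouts and 3, 11 and 19 in the controls, again most in control replicate 3.

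The rule for the other targets named Ndrg1, Vegfa, Pdk3 and Pfkfb3. Ndrg1, a stress-induced gene that is also abundant in Schwann cells, measured 38.0, 39.6 and 24.3 CPM in the knockouts, against 52.5, 53.2 and 71.5 CPM in the controls. Here every knockout was below every control. The estimated counts of Ndrg1 were not whole in any library, so copies may share its reads. Its log2 fold change of -0.80 (SE 0.20) had an adjusted p of 0.133 in edgeR, with -0.60 without knockout replicate 3 and -0.65 without control replicate 3, and it was -0.45 without both (adjusted p = 0.113, edgeR). DESeq2 gave an adjusted p of 0.00467, and the alternatives together gave 0.00135 to 0.373. Vegfa measured 29.6, 24.5 and 28.9 CPM in the knockouts, against 33.4, 33.7 and 54.0 CPM in the controls. The groups did not overlap, and the log2 fold change of -0.53 (SE 0.19) had an adjusted p of 0.289 in edgeR. It was -0.28 without control replicate 3.

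Pdk3, which encodes a kinase that inhibits pyruvate dehydrogenase, measured 44.8, 38.0 and 33.7 CPM in the knockouts, against 38.8, 34.97 and 38.3 CPM in the controls. The groups overlapped, with a log2 fold change of 0.05 (SE 0.12). Pfkfb3, which makes the activator of phosphofructokinase, measured 17.1, 19.8 and 21.5 CPM in the knockouts, against 17.8, 22.1 and 34.7 CPM in the controls. It overlapped outside control replicate 3. Pdk1, Ankrd37 and Pfkfb4 had log2 fold changes of -0.29, -0.64 and -0.38 with overlapping groups, and each was highest in control replicate 3. Without that library they were 0.02, -0.30 and -0.19.

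**Figure D5:**
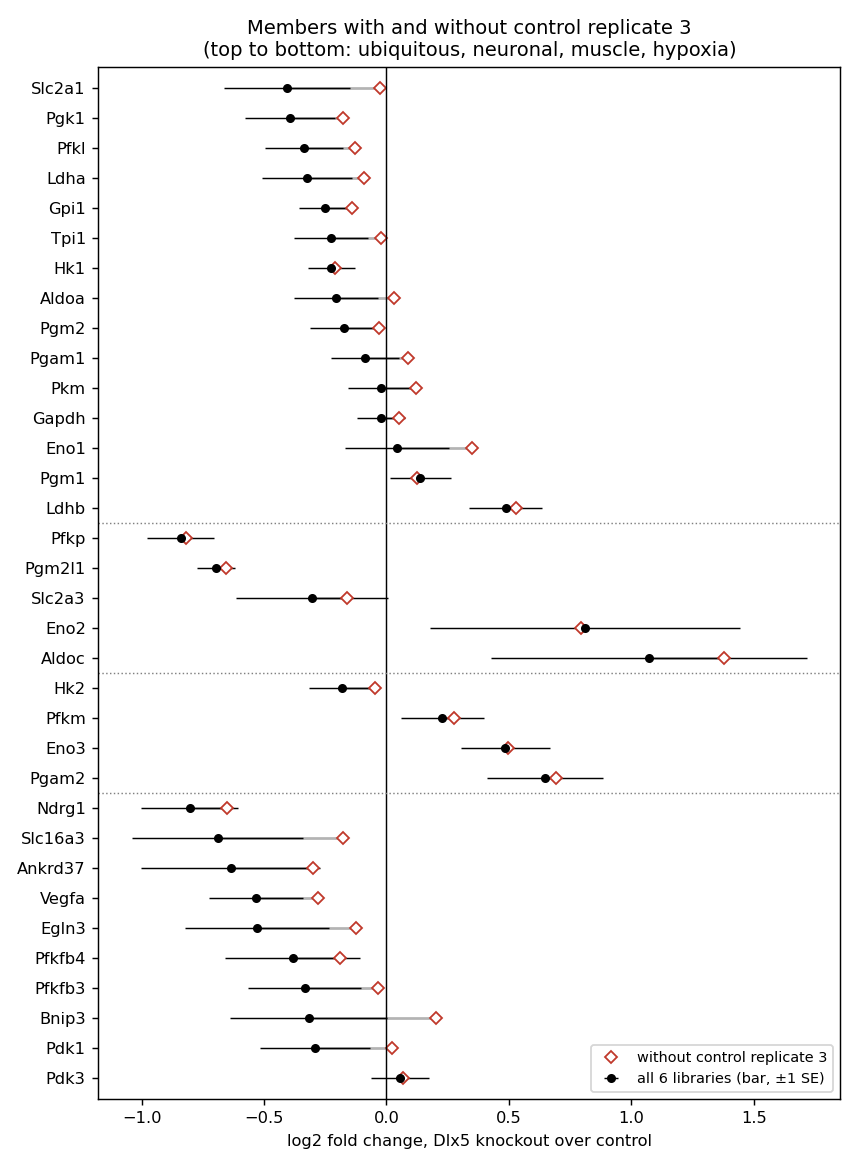
Log2 fold change of Dlx5 knockout over control for the 34 members, in blocks from the ubiquitous enzymes at the top to the hypoxia targets at the bottom. Filled points are the edgeR estimates with all 6 libraries and bars are 1 SE, while open diamonds are the estimates without control replicate 3. Most ubiquitous enzymes and hypoxia targets move towards 0 without that library, whereas Pfkp, Pgm2l1 and Ldhb stay where they were.

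Other features of control replicate 3 moved with these levels. It had the smallest total, and its summed marker levels were the highest of the 6 libraries for epithelium, macrophages and endothelium. The 8 epithelium markers, all detected, summed to 194 to 215 CPM in the knockouts, against 214, 214 and 322 CPM in the controls. The 8 macrophage markers, all detected, summed to 74.8 to 98.0 CPM in the knockouts, against 78.2, 80.1 and 126 CPM in the controls. The 8 endothelium markers, all detected, summed to 307 to 361 CPM in the knockouts, against 374, 382 and 439 CPM in the controls. For endothelium every control sum was thus above every knockout sum, and 7 of the 8 markers had a log2 fold change below 0. Their part in the ubiquitous and hypoxia values was not tested.

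Genes around the pathway were read from lists that were written from textbook knowledge with earlier results in view. None of their genes passed an adjusted p of 0.05 in the main edgeR fit. DESeq2 called 1 gene lower in each of the lists of hypoxia regulators, other hypoxia targets, and other glycolysis and lactate, beside 2.62% of its genes. Among the regulators, limma called 1 gene lower, beside 0.543%, as did edgeR without knockout replicate 3, beside 0.937%. The 12 regulators of the hypoxia response had a median log2 fold change of 0.05. Of them, 1 had an unadjusted p under 0.05 in edgeR, lower in the knockout, beside 7.23% of all genes. That gene was Epas1, which encodes the oxygen-sensitive factor HIF-2 alpha of endothelium and other cells. Epas1 measured 45.0, 50.6 and 47.6 CPM in the knockouts, against 69.7, 74.0 and 86.0 CPM in the controls. The groups were well apart, with a log2 fold change of -0.68 (SE 0.10; adjusted p = 0.055, edgeR), and it was -0.59 without control replicate 3. Hif1a, the gene of the ubiquitous factor, measured 176, 176 and 165 CPM in the knockouts, against 177, 175 and 167 CPM in the controls, with a log2 fold change of -0.01 (SE 0.07).

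A further 31 hypoxia targets outside the 11 had a median log2 fold change of -0.15. At an unadjusted p under 0.05 in edgeR, 2 were lower, beside 7.23% of all genes, and 1 was higher, beside 5.61%. Control replicate 3 was the highest library for 21 of the 31 (67.7%), against 16.6% of all genes tested. The median log2 fold change was 0.03 without that library. The 2 lower genes were Nrn1, a neuritin gene of neurons, with a log2 fold change of -0.67, and Vldlr, a lipoprotein receptor, with -0.45. The higher gene was Car12, a carbonic anhydrase, with 0.97. Their edgeR adjusted p-values were 0.0799, 0.142 and 0.173.

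The 23 other genes of glycolysis and lactate transport had a median log2 fold change of 0.01. At an unadjusted p under 0.05 in edgeR, 3 were lower, beside 7.23% of all genes, and 0 were higher, beside 5.61%. The gene with the smallest p of these was Slc16a7, which encodes a monocarboxylate transporter of neurons. Slc16a7 measured 11.9, 17.4 and 14.2 CPM in the knockouts, against 25.5, 25.5 and 23.4 CPM in the controls. All knockouts were below all controls, with a log2 fold change of -0.77 (SE 0.15; adjusted p = 0.0783, edgeR). Slc2a12, a glucose transporter gene, had a log2 fold change of -0.88.

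Other pathways of sugar and energy metabolism had medians near that of all genes. The 17 genes of the tricarboxylic acid cycle had a median log2 fold change of 0.04, and none had an unadjusted p under 0.05 in edgeR. The 20 genes of oxidative phosphorylation had a median of -0.06, with Uqcrc2, a subunit of the cytochrome bc complex, at 0.24 (adjusted p = 0.255, edgeR) as the only gene at an unadjusted p under 0.05. The 10 genes of the pentose phosphate pathway and gluconeogenesis had a median of -0.00, with G6pdx, the first enzyme of the pentose phosphate pathway, at 0.24 (adjusted p = 0.353, edgeR). The 13 glycogen genes had a median of -0.02, with none at an unadjusted p under 0.05. In the tricarboxylic acid cycle and oxidative phosphorylation lists control replicate 3 was the highest library for 1 gene each (5.88% and 5.0%). It was the highest for 16.6% of all genes tested and for 13 of the 15 ubiquitous glycolysis genes.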

How the data were processed

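The deposited table holds estimated counts per gene and library, although its file is described as normalized: column totals differ, and 64.5% of values above 0.5 were whole within 0.001. STAR 2.4.1d, Partek and the build mm10 appear in the submitters' processing notes. How genes were annotated and counted, or whether strand was used, is not given in the sources used here. Per the labels' protocols, RNA came from RNeasy columns and libraries from a TruSeq mRNA kit. The table has 1 column whose name fits no labelled sample, and it was left out.

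Estimated counts were rounded to whole numbers, and 16218 of 49492 genes with a mean of at least 1 CPM were kept. Knockout was compared with control in edgeR 4.0.16 (R 4.3.3) by the quasi-likelihood test, with TMM factors and no block, and with Benjamini-Hochberg adjustment over all kept genes at 0.05. The code was tested on simulated data. Alternatives were other scalings and filters, DESeq2 1.42.0, limma-trend 3.58.1 on log2(CPM + 1), a replicate block and each library left out. Leaving out both replicates numbered 3, and exon union lengths for family shares, were added after seeing the data.

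The members, lists and naming rule were chosen with earlier results of these data known. The rule took the most abundant member of each family, members with groups apart or an unadjusted p under 0.05, all neuronal and muscle isoenzymes, and up to 4 genes of smallest p from each other list. A gene that this rule selects is not reported here. Medians over lists carry no test. Coordinates and lengths (longest basic protein-coding transcript) are those of GENCODE M21 (GRCm38, the same assembly as mm10), and promoter windows those of RefSeq. Aldoa has 2 gene models of that name and no coordinates are given for it. Phosphoglucomutase shares were not computed. Figures were drawn with matplotlib 3.10.9.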

Additional observations from a re-analysis of the deposited data

How the results depend on the processing

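Of the fits of single members under the alternatives, 475 in all, 436 kept their direction and their side of the threshold, 25 turned direction and 14 passed the adjusted threshold that the main fit did not. The number of genes with an adjusted p under 0.05, 1 in the main fit, was 41 with library totals, 501 in DESeq2, 97 in limma, 679 without a filter, 74 with a filter of 5 CPM, 60 without both replicates numbered 3, and 0 to 164 with each library left out (164 without knockout replicate 3, 0 without control replicate 3 or knockout replicate 1 or 2). The genes fitted numbered 29870 without a filter, 12523 with a filter of 5 CPM and 16218 in the other fits. The number of members called, 0 in the main fit, was 3 in DESeq2 and 2 in limma. Without a filter it was 4 (Ldhb higher, Pfkp, Pgm2l1 and Ndrg1 lower), and with a filter of 5 CPM it was 1 (Pgm2l1). It was 2 without both replicates numbered 3, and 0 to 2 with each library left out. Same-numbered libraries did not deviate together (correlations -0.0164, -0.0201 and 0.00804), and differently numbered ones gave -0.0417 to 0.0607. With 3 libraries per group this check cannot exclude a pairing. A replicate block called 0 genes and 0 members. The median of the hypoxia targets was -0.38 in limma and with a filter of 5 CPM. Over the fits that left out a library or both replicates numbered 3, the list medians spanned -0.60 to -0.062 for the hypoxia targets, -0.26 to 0.021 for the ubiquitous enzymes, -0.052 to 0.047 for other glycolysis genes, 0.0084 to 0.068 for hypoxia regulators, -0.22 to 0.096 for other hypoxia targets, -0.083 to 0.032 for the pentose phosphate list and -0.021 to 0.12 for glycogen. With exon union lengths the mean family shares were 21.2% for Eno3 in the knockouts and 18.1% in the controls, 8.0% and 13.3% for Pfkp, and 48.5% and 35.7% for Ldhb, and in the controls 4.21% for Aldoc and 9.62% for Eno2. Members whose log2 fold change turned sign spanned, over the same fits, -0.32 to 0.030 for Aldoa, -0.33 to 0.011 for Tpi1, -0.085 to 0.057 for Gapdh, -0.20 to 0.088 for Pgam1, -0.14 to 0.42 for Eno1, -0.11 to 0.12 for Pkm, -0.43 to 0.021 for Ldha, -0.25 to 0.024 for Pgm2, -0.26 to 1.46 for Aldoc, -0.64 to 1.20 for Eno2, -0.019 to 0.35 for Pfkm, -0.45 to 0.12 for Pdk1, -0.058 to 0.17 for Pdk3, -0.55 to 0.23 for Bnip3 and -0.90 to 0.0092 for Slc16a3. By setting, 10 members turned without both replicates numbered 3, 6 without control replicate 3, 3 without knockout replicate 3 (Aldoc, Eno2 and Pfkm), 3 without knockout replicate 1, and 1 each without knockout replicate 2, control replicate 1 and control replicate 2. The cause of these shifts was not tested. No other scaling, filter or tool turned a member's direction.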
